A study of Mus musculus with 2 samples.

Results

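Basal myoepithelial cells form the outer layer of the mammary epithelium and contract around the luminal cells to expel milk. They were chosen here from single-cell RNA-seq of mouse mammary glands by their keratins. A cell was called basal when Krt5 and Krt14, the keratin pair of the basal layer, together reached at least 20 unique molecular identifiers (UMIs, each a counted RNA molecule) per 10000 UMIs of the cell. Krt18, a luminal keratin, had to be under 50 and Glycam1 under 100 on the same scale. Only barcodes in which 500 or more genes were detected, and whose mitochondrial UMIs were no more than 10% of the total, were kept for the rule. It found 2014 basal cells among 8909 kept cells, 1052 of 3416 in the control library and 962 of 5493 in the knockout library. They were set against the 5982 cells with Krt18 of at least 50 per 10000 UMIs and Glycam1 under 100, called Krt18-high cells below, of which 2145 were in the control and 3837 in the knockout library.

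The control library, called Ctrl, came from miR-200c/141-flox/flox mice, in which loxP sites flank the miR-200c/141 locus on both alleles. The knockout library, called cKO, came from K8-CreERT2;miR-200c/141-flox/flox mice, which also carry a tamoxifen-inducible Cre recombinase named for keratin 8, a keratin of luminal cells. All mice were C57BL/6, received tamoxifen at 8 to 10 weeks of age and gave their glands 4 weeks later; the labels also state an age of 8 weeks. Mammary cells were enriched by FACS, with a gate that is not given in the sources used here, and how many mice entered a library is not given either. With 1 library per group no test between Ctrl and cKO is possible, so each difference below compares these libraries, and every interval is a 95% interval that covers counting error only.

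Myoepithelial cells share much of their contractile machinery with smooth muscle. These cells shorten through smooth muscle actin and myosin when oxytocin arrives. The serum response factor drives many genes of this machinery through CArG boxes in their promoters. The same cells lay down basement membrane, hold the p63 transcription factor (Trp63) that maintains basal identity, and send Wnt, Notch, neuregulin and chemokine signals to their neighbours. The miR-200 family is known for repressing Zeb1 and Zeb2, repressors of epithelial genes, and is generally abundant in luminal and low in basal mammary cells.

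The deleted locus encodes the pair of microRNAs below, whose mature sequences are shown because they name the genotype. Capitals mark the seed, bases 2 to 8, which pairs with target messages. The sequences are from RefSeq on GRCm38.p6, where the mature miR-200c-3p lies at chr6:124718324-124718346 and miR-141-3p at chr6:124717917-124717938, both on the minus strand. Counted from the 5′ end of the mature microRNA, the seeds differ by U4C.
mmu-miR-200c-3p: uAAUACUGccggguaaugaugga
mmu-miR-141-3p: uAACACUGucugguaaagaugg
These libraries count polyadenylated messages by gene, and levels of the mature microRNAs were not analysed here. Whether recombination took place in the basal cells of the cKO library was not tested.

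The Ctrl file held 95520633 UMIs in 4237 barcodes and the cKO file 103668011 UMIs in 6257 barcodes. Basal cells contributed 12687725 and 7817662 of these UMIs. Depth differed between the libraries: the median basal cell had 10380.5 UMIs and 2851.5 genes in Ctrl against 7330 UMIs and 2338 genes in cKO, and the median Krt18-high cell had 29668 and 16683 UMIs. Median mitochondrial shares of basal cells were 2.69% and 2.42%. The libraries shared 6 barcodes, of which 5 were kept in both and none was basal in both. Scrublet called 9 Ctrl cells (0.26%) and 58 cKO cells (1.06%) as doublets, 1 and 7 of them basal; since the Ctrl rate is too low to count as a working call, doublets were kept.

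The values that chose the cells are given as a description only. Krt5 plus Krt14 had a median of 72.6 per 10000 UMIs in the basal cells of either library, with the 10th and 90th percentiles at 36.0 and 142 in Ctrl and at 36.4 and 125 in cKO. Krt18 had a median of 4.04 in Ctrl and 7.76 in cKO. Few cells lay near the limits. Just inside the Krt5 plus Krt14 limit, between 20 and 30, were 55 Ctrl and 50 cKO cells, and just outside, between 10 and 20 with the other limits met, were 25 and 28. The cells just outside carried 2491 and 1714 counts per 1000000 (CPM, UMIs summed over cells and scaled to that total) of Acta2, beside 2419 and 3767 CPM in those just inside. At the Krt18 limit, 3 Ctrl and 12 cKO cells lay between 40 and 50, and 0 and 5 cells lay between 50 and 60. Another 17 Ctrl and 51 cKO cells passed the Krt5 plus Krt14 limit but were Krt18-high, and the Glycam1 limit alone removed 0 and 3 cells.

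**Figure D1:**
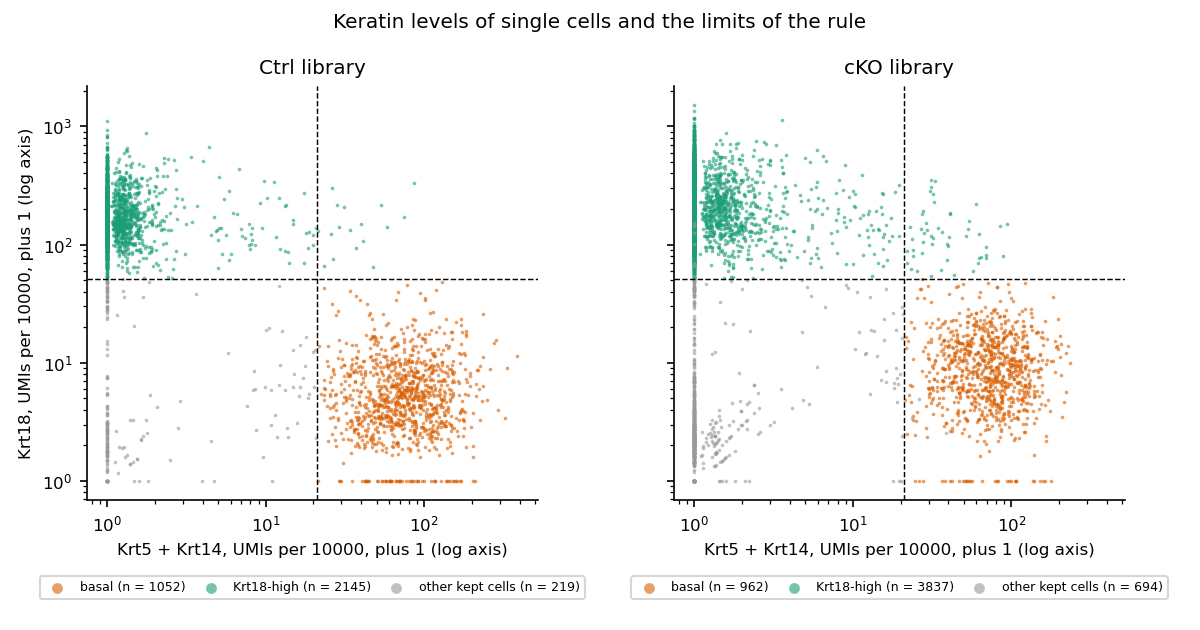
Krt5 plus Krt14 (x axis) against Krt18 (y axis) in every kept cell, in UMIs per 10000 plus 1 on log axes, with 1 panel per library and dashed lines at the limits of 20 and 50. Basal cells (1052 in Ctrl, 962 in cKO) form the lower right group, apart from the Krt18-high cells at the upper left, and few cells lie beside the lines.

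The label held against the markers that the rule did not use. Acta2, smooth muscle actin, stood at 3765 CPM in Ctrl basal cells and 6026 CPM in cKO basal cells, against 25.7 and 42.7 CPM in Krt18-high cells. Cnn1, calponin of smooth muscle, stood at 301 and 622 CPM against 2.65 and 5.21. Cxcl14, a chemokine of basal cells, stood at 2349 and 1934 CPM against 14.5 and 13.0, and Trp63 at 67.7 and 31.7 CPM against 0.78 and 1.25. These 4 genes were thus higher in basal cells in both libraries, by 25.4-fold for Trp63 in cKO up to 162-fold for Cxcl14 in Ctrl. With every cell thinned to 2000 UMIs, Acta2 was detected in 92.6% of Ctrl and 90.2% of cKO basal cells, against 2.38% and 3.21% of Krt18-high cells. Unthinned, the shares were 98.1% and 95.4% against 14.3% and 14.6%, and thinning left out 26 and 29 basal and 15 and 31 Krt18-high cells.

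Basal keratins were counted at a low level in Krt18-high cells, and luminal keratins at a low level in basal cells. Krt14 reached 62.4 and 82.5 CPM there, against 7169 and 7005 CPM in basal cells. Krt5 reached 5.04 and 6.33 CPM, against 818 and 822 CPM. Krt8 stood at 739 and 604 CPM in basal cells, against 4881 and 4234 CPM in Krt18-high cells. Glycam1, which the rule capped in both classes, was at 28.4 and 195 CPM in basal and 27.4 and 154 CPM in Krt18-high cells. Between these classes its level thus differed less than between the libraries. The other kept cells held 81504 and 105533 CPM of it.

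**Figure D2:**
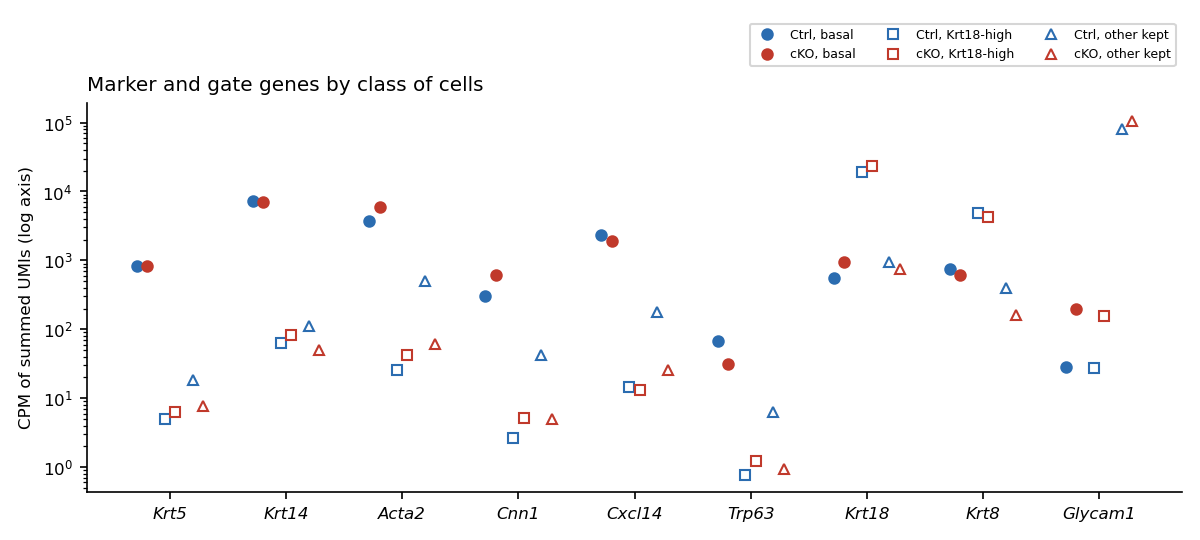
Level of the marker and rule genes in CPM of summed UMIs (log axis) in basal cells (filled circles), Krt18-high cells (open squares) and other kept cells (open triangles) of Ctrl (blue) and cKO (red). Acta2, Cnn1, Cxcl14 and Trp63 lie at least 25.4-fold higher in basal than in Krt18-high cells of the same library.

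Markers of other cell types were low in the basal cells. The 8 endothelial markers summed to 8.75 and 19.2 CPM, the 8 pericyte markers to 2.995 and 2.81 CPM, the 8 myeloid markers to 8.67 and 5.63 CPM, and the 8 T and NK cell markers to 1.18 and 0.51 CPM. Of the pericyte markers 3 of 8 were at 0 in each library, of the T and NK markers 6 and 7 of 8. The fibroblast markers summed to 175 CPM in Ctrl and 79.2 CPM in cKO, of which Dcn alone made 96.5% and 94.99%. The lymphatic markers summed to 241 and 447 CPM, of which Pdpn, podoplanin, made 98.5% and 96.0%; Pdpn stood at only 3.69 and 4.43 CPM in Krt18-high cells. Adipocyte markers summed to 15.6 and 49.6 CPM, of which Fabp4 made 78.3% and 92.0%, and Schwann cell markers to 60.4 and 76.2 CPM, mostly Sox10 and Mbp. B cell, skeletal muscle and erythroid markers each summed to at most 4.60 CPM in either library. So the endothelial, lymphatic and adipocyte sums were higher and the fibroblast sum lower in the cKO basal cells, and their part in the differences between libraries was not tested beyond the alternative that leaves such cells out. In 6 Ctrl and 30 cKO basal cells the markers of another non-epithelial type summed to more than Acta2, Cnn1, Cxcl14 and Trp63. Lymphatic markers were in excess in 21 of the 30 and adipocyte markers in 5. Because Pdpn made most of the lymphatic sum in basal cells, such an excess need not mark a cell of another type. Whether the cells left out are of another type was not tested. The 8 luminal progenitor markers summed to 2846 and 1499 CPM in basal against 7486 and 8056 CPM in Krt18-high cells, with Lcn2, a secreted protein that binds iron carriers, making 97.1% and 94.1% of the basal sum. Lcn2 stood at 2762 and 1411 CPM in basal cells, and its median per cell was 23.7 and 10.1 per 10000 UMIs.

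Basal cells made up 30.8% (29.3 to 32.4) of the kept cells in Ctrl and 17.5% (16.5 to 18.5) in cKO, by the exact Clopper-Pearson method. Among basal and Krt18-high cells together they made up 32.9% (31.3 to 34.6) of 3197 cells and 20.05% (18.9 to 21.2) of 4799 cells. The share was lower in the cKO library on either base, beyond counting error. A difference of this kind between single sorted libraries cannot be told apart from a difference in dissociation or in the sort.

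The comparison of basal with Krt18-high cells rests on cells chosen by keratin, so its counts describe the classes and have no test. Of 13321 compared genes, 1561 (11.7%) were at least 2-fold higher in basal cells in both libraries and 2738 (20.6%) at least 2-fold lower. These shares are the background for the list counts between the classes that follow. The median log2 ratio over all these genes was -0.24 in Ctrl and -0.06 in cKO.

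Contractile genes set the class apart. Of the 17 that were measured, 14 were at least 2-fold higher in basal cells in both libraries and 0 lower, and the list had a median of 6.03 in Ctrl and 5.16 in cKO on the log2 scale. Myl9, a regulatory myosin light chain, stood at 308 and 628 CPM against 2.41 and 4.09 CPM in Krt18-high cells. Myh11, the smooth muscle myosin heavy chain, stood at 196 and 330 CPM against 1.49 and 2.58 CPM, and Actg2, gamma smooth muscle actin, at 116 and 97.0 CPM against 0.93 and 0.52 CPM. The exceptions were Myl6, Actn1 and Csrp1, which the luminal cells also hold: Csrp1 stood at 285 and 360 CPM in basal and at 296 and 393 CPM in Krt18-high cells. Of the regulators of contraction, 3 of 10 were higher in basal cells, namely Tgfb1i1, Ppp1r14a and Kcnmb1. Of 5 measured receptors for contraction, Oxtr and Chrm3 were higher and Adra2a and P2ry2 lower. Oxtr, the oxytocin receptor, stood at 6.23 and 11.8 CPM, and a UMI of it was seen in 6.37% and 7.28% of basal cells.

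Keratins divided by layer. Of the basal keratins, Krt5, Krt14, Krt15, Krt16 and Krt17 were higher in basal cells and Krt6a was lower. Krt17 reached 5171 and 4059 CPM in basal cells, below Krt14 alone among them. All 4 luminal keratins, Krt7, Krt8, Krt18 and Krt19, were lower, which for Krt18 is the rule itself.

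Basement membrane genes followed, with 18 of 22 at least 2-fold higher in basal cells in both libraries and none lower. Sparc, a collagen-binding matrix protein, had the highest level at 957 and 775 CPM, against 9.89 and 6.19 CPM in Krt18-high cells. Col4a1, a chain of type IV collagen, stood at 96.0 and 69.2 CPM, and Col17a1, a collagen of hemidesmosomes, at 87.3 and 99.1 CPM against 0.97 and 1.05. Of the integrin and hemidesmosome list, 7 of 17 were higher (Itga1, Itga3, Itga9, Itgb1, Cd151, Cdh3 and Pkp1) and Itga2 and Itgb6 were lower.

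Of the basal transcription factors, 9 of 17 were higher in basal cells: Trp63, Snai2, Tbx2, Id4, Bcl11b, Myc, Irx4, Foxp1 and Egr2. Id4, an inhibitor of helix-loop-helix factors, stood at 154 and 136 CPM against 1.44 and 2.40 CPM. Irx4, a homeobox factor, ranked among the leading genes of the class at 24.1 and 31.2 CPM against 0.19 and 0.12 CPM. Sox10 and Sox9 were not past the 2-fold limit in both libraries on the basal side: Sox10 stood at 31.8 and 31.6 CPM against 17.2 and 14.0, and Sox9 at 187 and 248 CPM against 370 and 673. Meis1 and Barx2 were lower in basal cells. Of 12 luminal factors, 8 were lower, among them Elf5, Foxa1, Esr1, Pgr and Ehf, and only Cebpb was higher.

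Among secreted signals, 17 of 28 paracrine ligands were higher in basal cells and 3 lower, Edn1 and Areg among them. They included the Wnt ligands Wnt10a, Wnt11 and Wnt6, the Notch ligands Jag1, Jag2 and Dll1, the ErbB ligand Nrg1, and Fst, follistatin, which binds activin. Wnt10a stood at 106 and 83.3 CPM against 0.62 and 0.41 CPM, and Fst at 1485 and 3276 CPM against 10.5 and 35.2 CPM. Growth factor receptors were less one-sided, with 4 of 19 higher (Igf1r, Ngfr, Tgfbr1 and Tgfbr3) and 4 lower. Of 17 Wnt pathway and stem cell genes, 9 were higher, among them Lgr5, Procr, Sfrp1 and the secreted inhibitor Wif1, while Tspan8 and Cd24a were lower. Lgr5, a receptor for R-spondins, had 14.7 and 15.4 CPM against 0.26 and 0.37 CPM and was seen in 13.3% and 10.5% of basal cells.

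The genes with the highest ratios, ranked by the library with the smaller one, were Rcn3, Igfbp2, Wnt10a, Wif1, Igfbp3, Cxcl14, Col14a1, Antxr1, Acta2, Cacna2d1, Krt5, Scn7a, Speer4e, Myl9, Myh11, Actg2, Irx4, Layn, Cnn1 and Meg3. Rcn3, a calcium-binding protein of the endoplasmic reticulum, led the ranking at 96.8 and 71.8 CPM against 0.54 and 0.41 CPM, a ratio of 178 (131 to 248) in Ctrl and 176 (124 to 258) in cKO. Igfbp3, an IGF-binding protein, had 581 and 305 CPM against 3.83 and 1.83 CPM. Cacna2d1 and Scn7a, ion channel subunits, had 50.5 and 70.9 CPM and 55.2 and 80.1 CPM. At the other end were Upk3a, Col6a3, Ceacam1, Fgb, Slc44a4, Car2, Rasgrf1, Dock8, Pdzk1ip1 and Prr15l. Fgb, fibrinogen beta, stood at 5.91 and 16.6 CPM in basal against 741 and 1157 CPM in Krt18-high cells.

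The other lists were mixed, beside 11.7% higher and 20.6% lower over all genes compared between the classes. The immediate early counts, for example, lie under both shares. Of the matrix proteins and proteases, 15 of 25 were higher and 2 lower in basal cells. Of the oxidative stress and metal genes, 7 of 16 were higher, led by Hmox1, heme oxygenase, at 9637 and 4710 CPM against 869 and 408 CPM, and by the ferritin chains Fth1 and Ftl1. Heat shock genes gave 5 of 15 higher and 0 lower, immediate early genes 2 of 24 higher and 3 lower, and antigen presentation genes 3 of 13 higher and 2 lower. Interferon-stimulated genes gave 1 of 18 higher, Ifitm3 at 3973 and 4909 CPM, and 5 lower. Chemokines and cytokines gave 6 of 21 higher, among them Cxcl12, Ccl2 and Ccl7, and 7 lower. Of genes reported as miR-200 targets, 8 of 25 were higher and 3 lower, and of the genes beside the deleted locus 1 of 10 higher and 1 lower. Milk proteins gave 8 of 11 lower, cell cycle genes 7 of 20 lower, and glycolysis genes 3 of 15 higher and 2 lower, with none higher in the milk and cell cycle lists.

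Because the contractile genes were high together, their promoters were read for the CArG box, the 10-base element of serum response factor, with 2 C, then 6 bases that are A or T, then 2 G. The window ran from 250 bases before to 50 bases after the start site in RefSeq on GRCm38.p6, and 15 of the 18 listed contractile genes had 18 such promoters. The box is its own reverse complement in form, so a search of either strand finds the same sites. A full box was in 2 of the 18 promoters (11.1%), those of Myl9 and Myl6, and in 535 of the 32851 promoters searched (1.63%). The promoters searched do not cover every gene, so both background shares hold for this set only. With at most 1 base off the box, 7 of 18 (38.9%) and 6936 of 32851 (21.1%) had a match. The promoters of Acta2, Myl9 and Tpm1 are printed as examples, chosen because they hold boxes and these genes stood higher in the cKO library. Each run is the 250 bases before the start site, read 5′ to 3′ on the gene's strand, with a box or a box with 1 base off in capitals. The Acta2 run is chr19:34255374-34255623 on the minus strand, the Myl9 run chr2:156775214-156775463 on the plus strand and the Tpm1 run chr9:67049214-67049463 on the minus strand.
Acta2: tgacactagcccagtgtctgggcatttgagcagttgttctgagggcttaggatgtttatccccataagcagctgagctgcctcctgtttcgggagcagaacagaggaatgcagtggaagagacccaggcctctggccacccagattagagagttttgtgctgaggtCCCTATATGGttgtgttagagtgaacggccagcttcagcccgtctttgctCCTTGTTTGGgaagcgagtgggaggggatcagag
Myl9: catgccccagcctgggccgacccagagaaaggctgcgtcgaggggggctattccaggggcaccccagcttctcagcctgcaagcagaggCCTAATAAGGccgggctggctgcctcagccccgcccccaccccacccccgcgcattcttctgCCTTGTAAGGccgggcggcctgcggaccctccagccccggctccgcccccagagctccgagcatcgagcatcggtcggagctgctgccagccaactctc
Tpm1: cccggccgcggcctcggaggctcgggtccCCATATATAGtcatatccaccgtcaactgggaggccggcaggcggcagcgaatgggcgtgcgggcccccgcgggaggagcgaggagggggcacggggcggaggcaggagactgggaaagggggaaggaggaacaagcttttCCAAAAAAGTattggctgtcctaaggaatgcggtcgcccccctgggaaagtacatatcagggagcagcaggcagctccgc
In Acta2 the boxes begin 84 and 34 bases before the start site, in Myl9 161 and 99 bases, and in Tpm1 221 and 80 bases. Of these, the Myl9 box at 161 bases is a full CArG box and the others have 1 base off. The Cnn1 and Synpo2 promoters held neither, and Myh11, Tagln and Actg2 had no promoter entry. Promoters of Lmod1, Cald1, Myl6 and Flna also held a match, and these genes were not 1.5-fold higher in cKO. Whether boxes go with the difference between libraries was not tested. A match is a description of these letters and not evidence of binding, and binding was not measured here.

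Basal cells varied widely in contractile level. Ordered within each library by the sum of Acta2, Tagln, Myl9 and Tpm2, they were cut into 4 groups of 263 cells in Ctrl and of 240 or 241 cells in cKO. These quartiles are ranges of a score, not cell types, and the genes that order them are not results. The median score was 21.4 per 10000 UMIs in the lowest and 135 in the highest quartile of Ctrl, and 16.6 and 214 in cKO. Depth moved with the order: the median cell had 8385 UMIs in the lowest and 11671 in the highest quartile of Ctrl, and 6053 and 9286 in cKO. The part of depth in the differences between quartiles was not tested.

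Of 5771 genes compared, 163 (2.82%) were at least 1.5-fold higher in the highest than in the lowest quartile in both libraries, and 66 (1.14%) at least 1.5-fold lower. Several contractile genes that did not order the cells went along. Cnn1 stood at 73.1, 148, 289 and 636 CPM from the lowest to the highest quartile of Ctrl and at 109, 260, 540 and 1238 CPM in cKO. Actg2 ran from 18.4 to 280 CPM in Ctrl and from 2.74 to 253 CPM in cKO, and Myh11 from 59.9 to 385 CPM and from 74.0 to 597 CPM. Each of these is low in the lowest quartile and highest in the top one, in both libraries. Tpm1 and Actn1 followed less, with ratios of the highest to the lowest quartile of 1.49 and 1.46 in Ctrl and of 1.29 and 1.57 in cKO. Smtn, smoothelin, did not follow: it ran from 74.9 to 90.3 CPM in Ctrl and from 107.6 to 108.4 CPM in cKO. Ranked by the library with the smaller ratio, Sh3bgr led, with 25.5 in Ctrl and 47.7 in cKO, from 1.102 to 28.2 CPM and from 0.69 to 32.7 CPM. Igfbp2 ran from 9.18 to 60.7 CPM and from 4.11 to 128 CPM, and Postn, periostin, from 126 to 320 CPM and from 149 to 519 CPM. Oxtr ran from 3.67 to 9.09 CPM and from 3.43 to 20.7 CPM.

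Basal keratins followed this order unevenly. Krt17 ran from 3386 to 6563 CPM in Ctrl and from 2899 to 5154 CPM in cKO. Krt14 was nearly level: it stood at 6685 and 7216 CPM in the lowest and highest quartile of Ctrl, a ratio of 1.08, and at 6424 and 7325 CPM in cKO, a ratio of 1.14. Fst did not follow the order either, at 1375 and 1478 CPM in Ctrl and at 3559 and 2900 CPM in cKO. Cxcl2 and Slpi went the other way. Cxcl2, a neutrophil chemokine, stood at 593 CPM in the lowest and 84.2 CPM in the highest quartile of Ctrl, and at 1263 and 321 CPM in cKO. Its sums rest on few cells, since 10 basal cells held 45.7% of its UMIs in Ctrl and 28.9% in cKO. Slpi, a secreted protease inhibitor, stood at 5123 and 2598 CPM and at 8290 and 2875 CPM. Procr, a receptor used to mark a basal stem cell fraction, stood at 75.7 and 47.5 CPM and at 78.8 and 31.5 CPM. Krt18 was 822 against 489 CPM in Ctrl and 1066 against 954 CPM in cKO, and the luminal genes Cldn7, Krt19, Wfdc18 and Clu were among the lowest in the top quartile. With basal cells limited to Krt18 under 10 per 10000 UMIs, an alternative added after these values were seen, the log2 ratio of Cxcl2 was -2.23 and -2.17 and that of Slpi -1.01 and -1.69. That of Wfdc18 was 0.02 in Ctrl and that of Clu 0.11 in cKO, so each lost its direction in that library. Cldn7 and Krt19 were not followed under this limit.

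**Figure D3:**
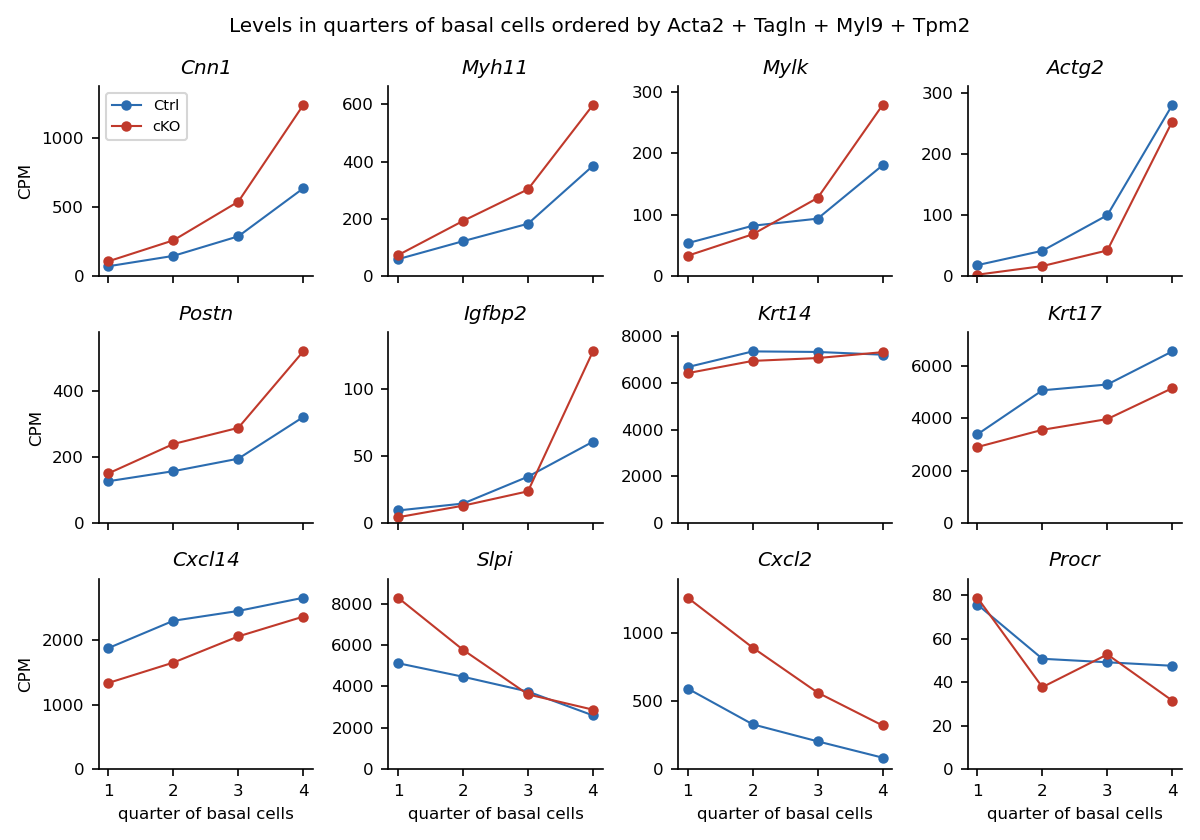
Level in CPM (y axis, from 0) of 12 genes in 4 groups of basal cells ordered by Acta2, Tagln, Myl9 and Tpm2 (x axis, 1 lowest to 4 highest), Ctrl in blue and cKO in red. Cnn1 goes from 73.1 to 636 CPM in Ctrl and from 109 to 1238 CPM in cKO, Krt14 stays between 6424 and 7358 CPM, and Cxcl2 and Slpi are highest in group 1.

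The basal cells of the cKO library were then compared with those of the Ctrl library, the comparison that the genotypes set up. Of 11297 genes with 20 or more UMIs over both libraries, 1034 (9.15%) were higher by 1.5-fold or more in cKO and 1028 (9.10%) lower by as much, around a median log2 ratio of 0.03. These shares are the background for each list below. In Krt18-high cells of the same libraries the shares were 12.7% and 16.0% of 14796 genes. Values below are CPM of summed basal cells in Ctrl and then in cKO, with the log2 ratio of cKO over Ctrl and its interval. Fewer molecules per cell and fewer cells with the message cannot be told apart in such sums, so the levels of single cells are added for the main genes.

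Contractile genes leaned to the cKO library. Of 17 measured, 7 (41.2%, against 9.15% of all genes) were 1.5-fold or more higher in cKO and 0 lower, and the median of the list was 0.42. Cnn1 stood at 301 and 622 CPM, or 1.05 (0.98 to 1.11) as a log2 ratio. Myl9 stood at 308 and 628 CPM, 1.03 (0.97 to 1.09). Acta2, on chr19:34241090-34255590 (minus strand, GRCm38), stood at 3765 and 6026 CPM, 0.68 (0.66 to 0.70). Tagln, transgelin, stood at 2419 and 3929 CPM, 0.70 (0.68 to 0.72). Myh11, Tpm1 and Synpo2 were the others, at 0.75, 0.67 and 0.86. Other members of the list stood below 0: Tpm2 had 1280 and 1141 CPM, -0.17 (-0.20 to -0.13), Actg2 116 and 97.0 CPM, -0.26 (-0.39 to -0.14), and Cald1, caldesmon, 781 and 661 CPM, -0.24 (-0.29 to -0.19). In Krt18-high cells, where Acta2 was at 25.7 and 42.7 CPM, its log2 ratio was 0.73 and that of Cnn1 was 0.97. The list there gave 7 of 17 higher and 2 lower, with a like median of 0.40. With basal cells rich in other types' markers left out, the median of the contractile list was 0.40. That filter weighs other markers against a sum that holds Acta2 and Cnn1, so it cannot serve as a separate check of this list.

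Single basal cells overlapped widely between the libraries. Acta2 had a median of 28.0 per 10000 UMIs in Ctrl and 31.2 in cKO, while its 90th percentile was 70.7 and 125, so that the libraries differed mostly in the cells with high levels. Of the Ctrl basal cells, 45.6% were above the cKO median. When each cell was given the same weight, the log2 ratio of Acta2 was 0.49 and that of Tagln 0.53, below the 1.5-fold limit. For Cnn1 the median was 1.83 and 3.29 per 10000 UMIs, and 32.2% of Ctrl cells were above the cKO median; thinned to 2000 UMIs, it was detected in 36.5% of Ctrl and 51.8% of cKO basal cells, against 73.2% and 77.7% without thinning. Regulators of contraction gave 2 of 10 higher and 0 lower: Ppp1r14a, an inhibitor of myosin phosphatase, at 3.31 and 11.4 CPM, 1.78 (1.24 to 2.35), and Ppp1r12b at 3.23 and 5.37 CPM. Srf stood at 17.1 and 14.6 CPM, -0.23 (-0.57 to 0.10). Of 5 measured receptors for contraction 1 was higher, Oxtr at 6.23 and 11.8 CPM, 0.92 (0.47 to 1.37), and 1 lower, Chrm3.

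Basal keratins gave 0 of 6 higher and 1 lower, Krt15 at 414 and 212 CPM, -0.96 (-1.04 to -0.88). Krt5 and Krt14, which chose the cells, stood at 0.01 and -0.03, and Krt17 at -0.35. Of the 4 luminal keratins Krt18 was higher at 561 and 950 CPM, 0.76 (0.71 to 0.81), though it too belongs to the rule. Krt8, whose promoter names the Cre, stood at 739 and 604 CPM, -0.29 (-0.34 to -0.24).

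Basement membrane genes leaned to the Ctrl library. Of 23, 0 were higher in cKO and 8 (34.8%, against 9.10% of all genes) lower, around a median of -0.42. The Krt18-high cells gave 4 of 21 higher and 5 lower, with a median of -0.20. Nid1, nidogen, which bridges laminin and collagen, stood at 11.3 and 4.22 CPM, -1.42 (-2.01 to -0.86), and Lama4, a laminin chain, at 10.6 and 3.97 CPM, -1.41 (-2.03 to -0.84). Col7a1, the anchoring fibril collagen, stood at 21.4 and 9.34 CPM, -1.20 (-1.59 to -0.82). Col4a2 and Col4a6 were also lower, at -0.66 and -0.78, and Col4a1 stood at -0.47. Fn1, fibronectin, stood at 41.3 and 18.8 CPM from few cells: 10 cells held 99.05% of its UMIs in Ctrl and 92.5% in cKO, and with cells rich in other types' markers left out its log2 ratio was 1.76. Col17a1, at 0.18, was closer to level. In the integrin and hemidesmosome list 2 of 18 were higher (Itga2 and Itgb6) and 3 lower (Itgb4, Pkp1 and Dsg3). Itgb4, the hemidesmosome integrin, stood at 53.7 and 30.2 CPM, -0.83 (-1.05 to -0.61), beside Itgb1 at 484 and 643 CPM, 0.41 (0.36 to 0.46).

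Transcription factors of basal identity also included lower members. Of 17, 0 were higher in cKO and 7 (41.2%) lower, around a median of -0.17. Trp63, on chr16:25683763-25892102 (plus strand), stood at 67.7 and 31.7 CPM, -1.09 (-1.30 to -0.89). A UMI of it was seen in 31.7% of Ctrl and 13.7% of cKO basal cells, or in 10.2% and 4.46% when thinned to 2000 UMIs, against 0.16% and 0.21% of thinned Krt18-high cells. Nfib stood at 172 and 113 CPM, -0.60 (-0.72 to -0.49), and Bcl11b at 15.5 and 9.21 CPM, -0.75 (-1.16 to -0.36). Nfib fell short of 1.5-fold with equal weight per cell, at -0.54, and without cells rich in other types' markers, at -0.58. Bcl11b fell short of it with the Krt5 plus Krt14 limit of 50, at -0.57. Twist1, Zeb1, Tbx2 and Barx2 were the other members that were lower, each with at most 79 UMIs in Ctrl. Barx2 had the opposite sign under a stricter keratin limit. Tbx2 was at -0.28 in cells of 5000 to 15000 UMIs, a range added after seeing the data. Snai2, Sox9 and Myc stood at 0.32, 0.41 and 0.31. Of 10 luminal factors 0 were higher and 2 lower, Ehf and Elf3.

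Paracrine ligands parted in both directions, with 7 of 28 higher (25.0%), 5 lower (17.9%) and a median of 0.23. Fst stood at 1485 and 3276 CPM, 1.14 (1.11 to 1.17), and its median per cell was 10.5 in Ctrl and 27.2 in cKO per 10000 UMIs. Only 17.1% of the Ctrl cells were above the cKO median. Dll1, a Notch ligand, stood at 50.4 and 131 CPM, 1.38 (1.24 to 1.53), while the Notch ligand Jag1 stood at 314 and 269 CPM, -0.22 (-0.30 to -0.15). Wnt11 was higher, at 27.2 and 44.8 CPM, and Wnt10a stood at 106 and 83.3 CPM, -0.34 (-0.48 to -0.21). Nrg1 was lower, at 271 and 127 CPM, -1.096 (-1.20 to -0.99), and so were Bmp7, at 29.7 and 13.0 CPM, and Il17b, a cytokine of the IL-17 family, at 56.9 and 20.1 CPM, -1.50 (-1.76 to -1.25). Thinned to 2000 UMIs, Dll1 was detected in 9.27% and 20.1% of basal cells, Nrg1 in 34.0% and 19.0% and Il17b in 10.5% and 3.44%. Unthinned, these shares were 34.9% and 46.7%, 72.4% and 44.9%, and 34.9% and 12.6%. Igfbp5 and Sostdc1 were the other lower ligands.

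Receptors and Wnt genes differed little as lists, with counts near the background. Growth factor receptors gave 2 of 16 higher, Ngfr and Notch2, and 2 lower, Erbb3 and Notch1, with a median of -0.13. Wnt and stem cell genes gave 1 of 18 higher and 3 lower, with a median of -0.09. Sfrp1, a secreted Wnt antagonist, stood at 24.6 and 52.2 CPM, 1.09 (0.87 to 1.30), while Rnf43, a ubiquitin ligase that removes Wnt receptors, stood at 11.9 and 5.24 CPM, -1.18 (-1.72 to -0.68). Tcf7l2, a nuclear effector of the pathway, stood at 32.8 and 17.9 CPM, -0.87. Lgr5 stood at 0.06 (-0.28 to 0.40) and Procr at -0.21 (-0.39 to -0.02). Tspan8 was lower at 15.8 and 1.92 CPM, and 10 cells held 71.1% of its Ctrl UMIs.

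Chemokines and cytokines leaned to the cKO library, with 11 of 20 higher (55.0%), 1 lower and a median of 0.75. The Krt18-high cells gave a like median, 0.74, and 13 of 24 higher against 5 lower. With cells rich in other types' markers left out the median was 0.54. Ccl2 and Ccl7, which attract monocytes, stood at 110 and 325 CPM, 1.57 (1.47 to 1.66), and at 44.9 and 179 CPM, 1.99 (1.85 to 2.14). In Krt18-high cells Ccl2 was at 8.65 and 11.0 CPM. Cxcl1 and Cxcl2 stood at 974 and 1559 CPM, 0.68 (0.64 to 0.71), and at 286 and 689 CPM, 1.27 (1.21 to 1.33), and Cxcl12 at 70.8 and 149 CPM, 1.07 (0.95 to 1.20). Csf3, the granulocyte growth factor, stood at 90.4 and 338.5 CPM, 1.90 (1.80 to 2.01), with 57.4% and 39.0% of its UMIs in 10 cells. For Ccl7 the 10 highest cells held 48.9% in Ctrl and 31.5% in cKO, and for Cxcl2 45.7% and 28.9%. Thinned to 2000 UMIs, Ccl2 was detected in 9.16% of Ctrl and 19.0% of cKO basal cells (22.0% and 31.0% unthinned). Cxcl16 and, with at most 53 UMIs in a library, Il33, Il6, Tnf and Tslp were the other higher members, and Cxcl5 was lower at -0.92. In cells with Krt18 under 10 per 10000 UMIs the median of the list was 0.52.

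Immediate early genes gave 4 of 24 higher and 2 lower, with a median of 0.25. Nfkbia, the inhibitor of NF-kappaB, stood at 444 and 1237 CPM, 1.48 (1.43 to 1.53). Socs3, an inhibitor of cytokine receptor signalling, stood at 194 and 426 CPM, 1.13 (1.06 to 1.21). The other higher members were Gadd45b at 120 and 229 CPM and Junb at 955 and 1693 CPM. Only 14.4% of Ctrl basal cells were above the cKO median of Nfkbia. Fos stood at 654 and 649 CPM, -0.01 (-0.06 to 0.04), and Jun was lower at 841 and 560 CPM, -0.59 (-0.64 to -0.54), as was Klf4. In Krt18-high cells Nfkbia stood at 0.64 and Socs3 at 0.62, and Jun at 0.06. The list there gave 7 of 24 higher and 0 lower, with a median of 0.28.

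Heat shock genes gave 0 of 15 higher and 3 lower, with a median of -0.29. The Krt18-high cells gave 0 of 15 higher and 4 lower, with a like median of -0.30. In basal cells the inducible chaperones Hspa1a and Hspa1b stood at 767 and 170 CPM, -2.17 (-2.26 to -2.09), and at 211 and 85.8 CPM, -1.30 (-1.42 to -1.17). Hsph1 was lower at -0.59, but with equal weight per cell it was at -0.55, short of 1.5-fold. Heat shock and immediate early genes are also known to respond to tissue dissociation, and the part of handling in these values was not tested.

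Oxidative stress and metal genes gave 2 of 16 higher and 7 lower (43.8%), around a median of -0.48. The antioxidant genes and the metallothioneins parted. Hmox1 stood at 9637 and 4710 CPM, -1.03 (-1.05 to -1.02). Its median per cell was 93.3 and 40.6 per 10000 UMIs, and 81.0% of Ctrl cells were above the cKO median. Ftl1, the ferritin light chain, stood at 7171 and 4148 CPM, -0.79 (-0.81 to -0.77), with Gclm, Gclc, Srxn1, Nqo1 and Gsta4 also lower. The metallothioneins Mt1 and Mt2 were the higher pair, at 3072 and 6673 CPM, 1.12 (1.10 to 1.14), and at 618 and 1375 CPM, 1.15 (1.11 to 1.20). In Krt18-high cells Hmox1 was also lower, at -1.09, while Mt1 stood at -0.48 and Mt2 at -0.28. The list there gave 0 of 16 higher and 6 lower, with a median of -0.32.

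**Figure D4:**
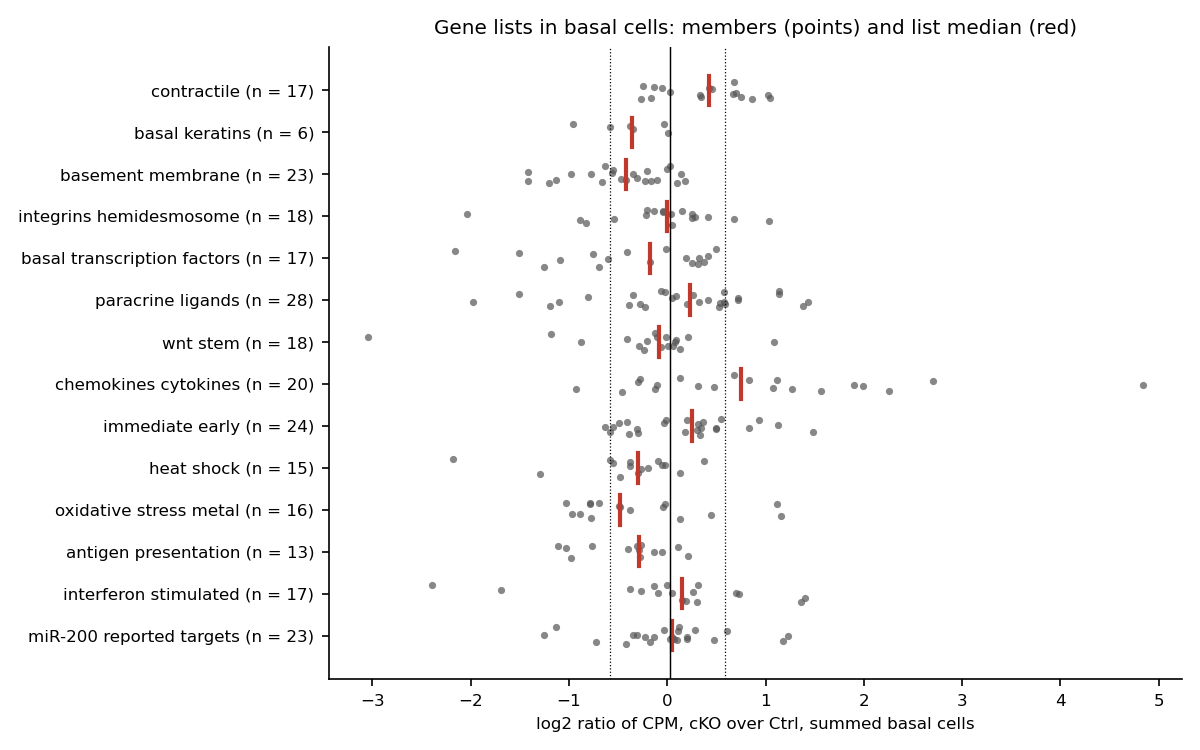
Log2 ratio of CPM, cKO over Ctrl, in summed basal cells (x axis) for each measured member (points) of 14 gene lists (rows), with the list median in red, the median of all genes (0.03) as a solid line and 1.5-fold as dotted lines. The contractile and chemokine medians are 0.42 and 0.75, and those of the basement membrane and oxidative stress lists -0.42 and -0.48.

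Interferon-stimulated genes gave 4 of 17 higher and 2 lower, with a median of 0.15 in basal cells, and 12 of 20 higher with a median of 1.07 in Krt18-high cells. Without the doublet calls the basal median was -0.01. Irf1 stood at 40.9 and 108 CPM, 1.40 (1.24 to 1.56), and Ifitm3 at 3973 and 4909 CPM, 0.31 (0.29 to 0.32). Ifit1, Ifit3 and Isg15 were at 2.64, 3.91 and 1.51 in Krt18-high cells; in basal cells Isg15 stood at 0.31 and Ifit1 and Ifit3 were lower, with 34 and 4 and with 21 and 4 UMIs. Whether the classes differ in this respect was not tested. Antigen presentation genes gave 0 of 13 higher and 4 lower, all of them of the class II pathway: Cd74, the invariant chain, at 55.3 and 28.0 CPM, and H2-Aa, H2-Ab1 and H2-Eb1, which had at most 76 UMIs. In cells of 5000 to 15000 UMIs, a range added after seeing the data, none of the 4 was 1.5-fold lower: the log2 ratio was -0.51 for Cd74, -0.03 for H2-Aa, -0.41 for H2-Ab1 and -0.0069 for H2-Eb1.

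Matrix proteins and proteases gave 7 of 25 higher and 5 lower, with a median of 0.19. Ctgf, a matricellular growth factor, stood at 73.0 and 163 CPM, 1.16 (1.03 to 1.28), and the proteases Adamts1 and Adamts5 both at 0.86. Postn and Timp1 both stood at 0.67. Mfge8, a milk fat globule protein, was lower at 448 and 121 CPM, -1.89 (-1.99 to -1.79), and so were Dcn at 169 and 75.2 CPM, Thbs1, thrombospondin, at 708 and 397 CPM, Fbln2 and Matn2. Of 7 measured milk protein genes 1 was higher, Glycam1, which the rule used, and 3 were lower, Mfge8, Trf and Xdh. Trf, transferrin, stood at 457 and 103 CPM, -2.15 (-2.26 to -2.05), and at -1.85 in Krt18-high cells.

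Cell cycle genes gave 9 of 17 higher (52.9%) and 0 lower, with a median of 0.79, but most had few UMIs in few cells. The Krt18-high cells gave 11 of 20 higher and 0 lower, with a median of 0.63. Mcm6, a replication helicase subunit, stood at 6.15 and 25.6 CPM, 2.06 (1.67 to 2.45). Pcna stood at 53.6 and 50.7 CPM, -0.08 (-0.26 to 0.10). Ube2c had its 35 and 63 UMIs in 6 and 3 cells and Cdk1 its 32 and 34 UMIs in 11 and 5 cells. Among members with at least 100 UMIs the median of the list was -0.11. Glycolysis and hypoxia genes gave 2 of 14 higher, Hk2 and Bnip3, and 0 lower.

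Genes that miR-200 has been reported to repress gave 3 of 23 higher (13.0%) and 3 lower (13.0%), close to the background, with a median of 0.04 beside 0.03 for all genes. The higher ones were Ets1, a transcription factor, at 50.8 and 119 CPM, 1.23 (1.08 to 1.38), Marcks, an actin-binding protein, at 157 and 239 CPM, 0.61 (0.52 to 0.70), and Ppm1f, with 23 and 32 UMIs. When depth was scaled by TMM or by the median of ratios, Marcks stood at 0.57, short of 1.5-fold. The lower ones were Zeb1, Notch1 and Fn1, and Fn1 was at 1.76 with cells rich in other types' markers left out. Zeb1 stood at 2.44 and 1.02 CPM, from 31 and 8 UMIs, and Zeb2 was too low to compare. Of the 10 genes beside the locus on chromosome 6, 8 were measured and 0 were past 1.5-fold in either direction, with a median of -0.11. Phb2 stood at 291 and 254 CPM, -0.20 (-0.28 to -0.12).

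Among genes whose basal level was at least that of the other cells in the library where the gene was higher, the highest ratio was that of Rpgrip1 (chr14:52110704-52163546, plus strand), which had 0 UMIs in Ctrl and 286 in cKO basal cells. With the 0 set to 3 counts it was 154.7-fold higher in cKO, and its interval starts at 125-fold and has no upper end. It was seen in 23.7% of cKO basal cells. Its level was 0.39 and 18.8 CPM in Krt18-high cells and 0 and 22.2 CPM in the other kept cells, so the difference was in every class. Gt(ROSA)26Sor, a noncoding gene at the Rosa26 locus (chr6:113067428-113077333, minus strand), followed at 2.13 and 31.2 CPM, 3.87 (3.30 to 4.51). It was at 5.10 and 20.7 CPM in Krt18-high cells and at 6.74 and 19.8 CPM in the other kept cells. It is annotated as antisense, and whether the counting used strand is not given in the sources used here. Ptprz1, a receptor phosphatase, stood at 3.86 and 33.3 CPM, 3.11 (2.66 to 3.58), while in Krt18-high cells it was at 4.14 and 2.75 CPM. Sfrp2, a secreted Wnt modulator, stood at 8.99 and 28.4 CPM, 1.66 (1.33 to 1.999), and Fbxo32, a ubiquitin ligase known from muscle atrophy, at 35.2 and 103 CPM, 1.56 (1.39 to 1.73). Errfi1, an inhibitor of the EGF receptor, was the most abundant of the group at 187 and 527 CPM, 1.49 (1.42 to 1.57). Rrad, Mcm6, Slc7a2, Tmsb15b1, Dapk2, Hspb6, Rai2, Rasl11a and Dll1 completed the 15 highest.

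The lowest ratio was that of Npw, neuropeptide W (chr17:24657330-24658457, minus strand), at 36.3 and 1.02 CPM from 460 and 8 UMIs, -5.15 (-6.37 to -4.16). It was seen in 29.4% of Ctrl and 0.73% of cKO basal cells. Pianp and Adh7, a retinol-oxidizing alcohol dehydrogenase, stood at -3.57 and -3.15. Others among the lowest were Col11a1 at 8.12 and 1.28 CPM, Fbln7 at 36.3 and 6.91 CPM, Reln at 33.2 and 7.93 CPM, Emid1 at 81.5 and 23.0 CPM and Chadl at 54.9 and 16.4 CPM. Gpx2, a glutathione peroxidase, stood at 68.9 and 14.2 CPM, -2.28 (-2.58 to -1.99), and at 1.90 and 1.57 CPM in Krt18-high cells. Neat1, a nuclear noncoding RNA, was the most abundant at 1495 and 419 CPM, -1.83 (-1.89 to -1.78), and stood at -1.58 in Krt18-high cells. Crispld1, C2cd4b, Nrg2, Cyp1b1 and Epdr1 completed the 15 lowest. Without the limit on the basal level, Sprr1a and Fxyd2 joined the highest and Calca and Plac8 the lowest. Calca, the calcitonin gene, had 264 and 0 UMIs in basal cells against 1989 and 0.58 CPM in Krt18-high cells, and Plac8 stood at 12.4 and 1.41 CPM against 898 and 54.2 CPM. For these 4 genes the Krt18-high level was the higher one in the library where the gene was high.

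**Figure D5:**
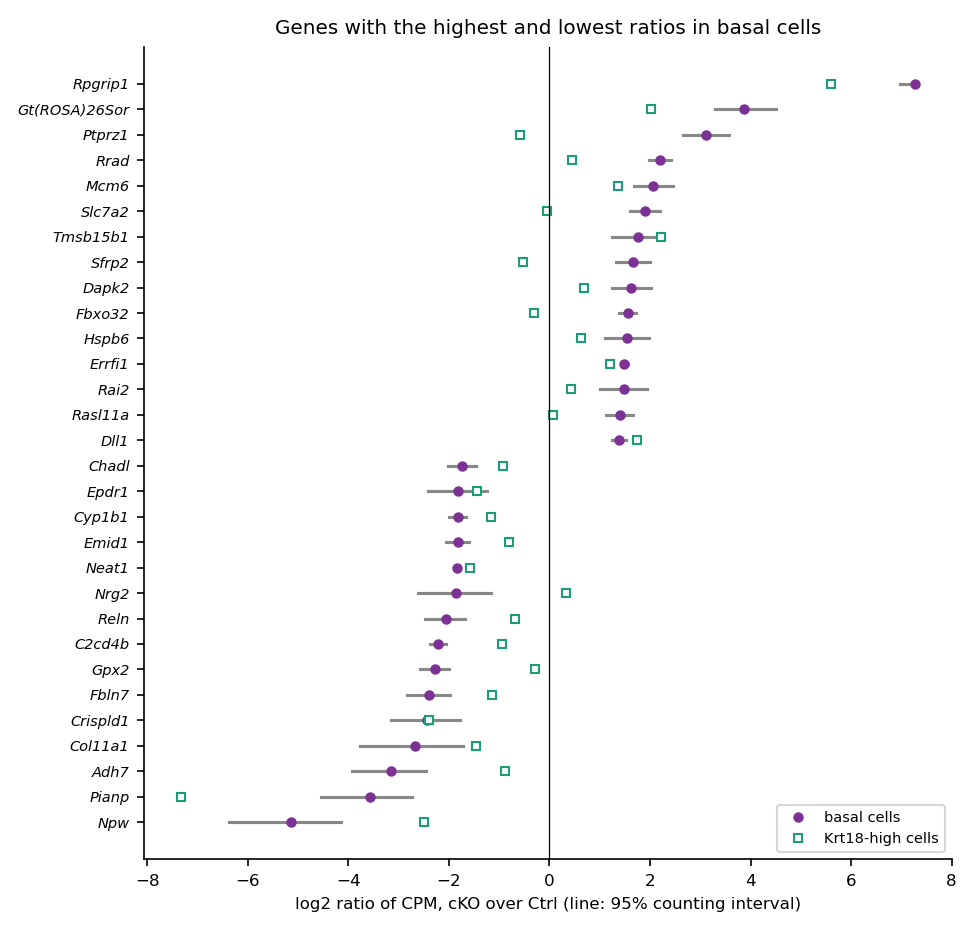
Log2 ratio of CPM, cKO over Ctrl, for the 15 highest and 15 lowest genes in basal cells (purple, with 95% counting intervals) and the same ratio in Krt18-high cells (open green squares). The interval of Rpgrip1 has no upper end because Ctrl held 0 UMIs. Ptprz1 and Sfrp2 lie at 3.11 and 1.66 in basal cells and at -0.59 and -0.54 in Krt18-high cells.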

How the data were processed

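Single-cell 3′ RNA libraries of FACS-enriched mammary cells were analysed, 1 Ctrl and 1 cKO. The deposited matrices hold counts of UMIs per gene and barcode as the authors made them, with Cell Ranger 2 and mm10 per the submitters' processing notes and software version 3.0.0 per the file headers. How intronic or antisense reads were treated is not given in the sources used here. Each barcode's total served as depth, and UMIs were summed over cells by class and scaled to CPM. Intervals are exact binomial intervals of the ratio of summed UMIs. They cover counting error only, because each group has 1 library, and no p-value is given. A sum of 0 was set to 3 counts so that a ratio could be given. Genes needed 20 UMIs. Differences are called at 1.5-fold between libraries and at 2-fold in both libraries between classes.

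The members, the 39 gene lists (15 of them marker lists) and the rules were chosen with earlier results of these data known. Named genes are the 20 highest and 10 lowest between classes, the 15 highest and 15 lowest between libraries with a basal level at least that of other cells in the library where the gene is higher, the 5 and 5 without that condition, up to 4 by level and 4 by ratio in each list, and the rule, marker, contractile, keratin and basal factor genes. The first ranks needed 100 UMIs and 5% of cells. Wnt11, Lgr5, Ccl2, Cxcl5, Cxcl12, Col4a2, Col4a6, Adamts1, Adamts5, Timp1, Fos, Isg15, Ifit1 and Ifit3 lie outside this and were chosen after their values were seen. Doublets called by Scrublet were kept. Alternatives changed the scaling (TMM, median of ratios), the count minimum, the weight of cells and each limit of the rule. Others left out doublet calls or cells rich in other types' markers. A range of 5000 to 15000 UMIs and quartiles of cells with Krt18 under 10 were added after seeing the data. Symbols matched GENCODE M21 for 31011 of 31053 genes. Calculations used Python 3.11.15, numpy 2.4.6, scipy 1.17.1, pandas 2.3.3 and scanpy 1.11.5 and were tested on simulated data; TMM factors were checked in edgeR 4.0.16.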

Additional observations from a re-analysis of the deposited data

How the results depend on the processing

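With 1 library per group the values have no replicate check, depth is lower in the cKO basal cells, and genes with few UMIs in few cells rest on those cells. Of 136 named genes past 1.5-fold between the libraries, 97 stayed past it the same way in each alternative that could be run and 39 did not; 238 were followed in all. The counts of higher and lower genes were 468 and 479 with a minimum of 100 UMIs and 3689 and 2371 with no minimum, where fewer or more genes are tested. With Krt5 plus Krt14 of at least 50 per 10000 UMIs, basal cells were 23.2% of kept cells in Ctrl and 13.2% in cKO, and 27.0% and 15.9% of basal plus Krt18-high cells. With Krt18 under 10 they were 26.8% and 11.0%, and 29.9% and 13.6%. Each limit keeps fewer cells by construction, and the cKO share stayed the lower one under both. The median of the cell cycle list was -0.11 with a minimum of 100 UMIs.

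Other log2 ratios crossed 0, and the cause was not tested. Fn1 was at 1.76 without cells rich in other types' markers, 4.86 with the Krt5 plus Krt14 limit of 50, 0.74 with Krt18 under 10 and 2.31 in cells of 5000 to 15000 UMIs, the last added after seeing the data. With the limit of 50, Barx2 was at 0.79, Ehf at 0.35 and Cd14 at 0.35. With Krt18 under 10, Itgb6 was at -0.10 and Barx2 at 0.061. Cd14 was at 0.20 in cells of 5000 to 15000 UMIs and Cdk1 at -0.089 with equal weight per cell. Emcn was at -0.056 without cells rich in other types' markers. Between the highest and lowest contractile quartile of cells with Krt18 under 10, Nupr1 was at 0.070 and Wfdc18 at 0.018 in Ctrl and Clu at 0.11 in cKO. TMM scaling moved the median of all genes from 0.03 to -0.01. No paired analysis was possible because each group has 1 library.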
